A study of Trichosurus vulpecula with 6 samples.

Results

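Hemidesmosomes are the junctions that rivet basal keratinocytes, the deepest cells of the epidermis, to the basement membrane. In each of them integrin α6β4 and collagen XVII cross the cell membrane, the plakin protein made by DST links them to keratin filaments inside the cell, and laminin-332 is their ligand in the matrix outside. The transcription factor p63, made by TP63, is required for basal keratinocytes to form and to renew the epidermis, and inherited loss of the junction proteins in humans causes blistering of the skin.

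The genes described here are ITGA6, ITGB4, COL17A1, DST, LAMA3, LAMB3 and TP63, 7 of the 17958 RefSeq genes with an assembled transcript in skin of the common brushtail possum (Trichosurus vulpecula). They were chosen by name, as members of the junction, its laminin ligand or its regulator, and not by any measured value. Earlier results of these data were known at the time of that choice. RNA was sequenced from ear punches of 6 adult female possums, 3 with black coats and 3 with grey coats, and each animal gave 1 library. The animals were wild and killed in pest control, and no genotype or treatment distinguishes the groups in the labels. The paper reports that RNA of these black possums carried only the T allele of a coding variant in ASIP. RNA of the grey possums carried the C allele, alone or with T. An ear punch holds every cell type of the ear and not only epidermis. In such bulk tissue fewer cells of a type and less RNA per cell cannot be told apart, and p-values measure the spread between these possums.

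The unit was TPM, a relative abundance scaled for transcript length and library size, summed over a gene's assembled transcripts. Aligned reads amounted to 7.58, 8.51 and 6.47 gigabases in black replicates 1 to 3, and to 4.17, 8.37 and 10.2 gigabases in grey replicates 1 to 3. The 3 basal keratinocyte keratins on the marker list were not analysed here, but 4 of 8 suprabasal keratinocyte markers were matched and summed to 2294 to 2676 TPM in black and 1571 to 2556 TPM in grey, with IVL at 0 in black replicate 1. Matched markers of fibroblasts (5 of 6, none at 0) summed to 2304 to 2713 TPM in black and 962 to 3609 TPM in grey, and grey replicate 1 held both the lowest suprabasal and the highest fibroblast sum. Skeletal muscle markers (7 of 10 matched) summed to 2798 TPM in black replicate 1 alone, against 2.77 to 6.53 TPM in the other 5 libraries, where CKM and TTN were at 0.

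All 7 genes were assembled in every library as spliced transcripts, 180 transcripts in all. COL17A1 stood highest, with 190 to 374 TPM over the 6 libraries, and DST followed at 92.0 to 156 TPM, so that these ranges did not overlap. ITGB4 (57.6 to 78.7 TPM) and LAMB3 (52.4 to 70.3 TPM) overlapped each other. TP63 (36.6 to 48.7 TPM) and ITGA6 (31.2 to 52.5 TPM) came next and also overlapped, and LAMA3 was lowest at 21.5 to 32.7 TPM, a range that met only that of ITGA6. The place of DST depended on how its length was counted: as mean depth over all of its exons it averaged 16.7 in black and 14.6 in grey per aligned gigabase, below ITGB4, ITGA6 and LAMB3. On that scale 22858 nt of its exons belong to the tail of a long form, whose depth is given further on.

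**Figure D1:**
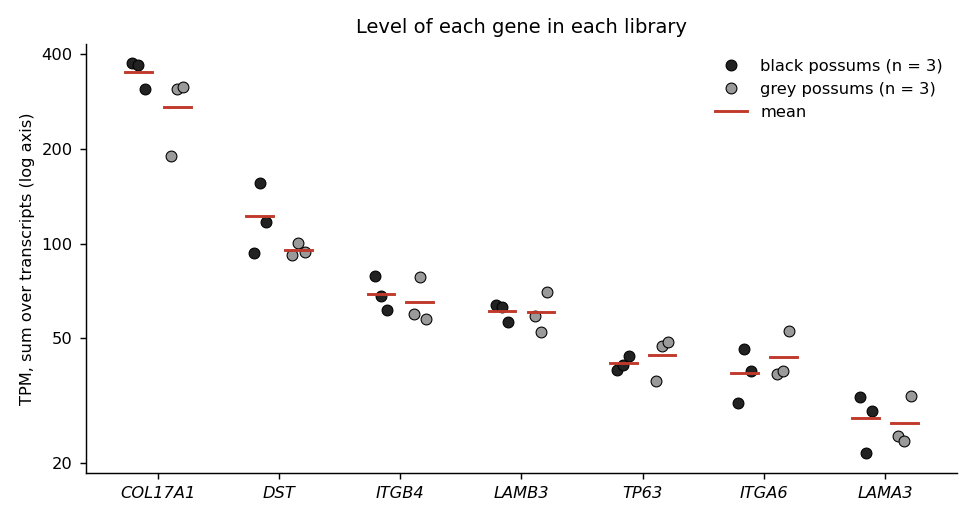
Level of each of the 7 genes in each library, in TPM on a log axis, with black possums on the left and grey possums on the right of each pair; points are libraries and red lines are means of 3. Every pair of groups overlaps, and COL17A1 is lowest in a grey library at 190 TPM.

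Whether the junction genes differed with coat colour was asked for each gene in a limma fit over the 15521 genes that averaged 1 TPM or more. None of the 7 passed at an adjusted p of 0.05, and 0 of 7 had an unadjusted p under 0.05. Over all genes tested, 0.0193% (3 genes) passed the adjusted threshold and 2.28% (354 genes) had an unadjusted p under 0.05. That count depended on single animals, since it was 1 without black replicate 1 and 0 without black replicate 3, grey replicate 1 or grey replicate 2. Levels of black and grey possums overlapped for all 7 genes, where 6.31% of all genes tested had no overlap. The difference was above 0 for 5 genes and below 0 for 2, with a median of 0.041 on the log2 scale, beside 0.037 over all genes tested. The adjusted p was 1.00 for every member.

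**Figure D2:**
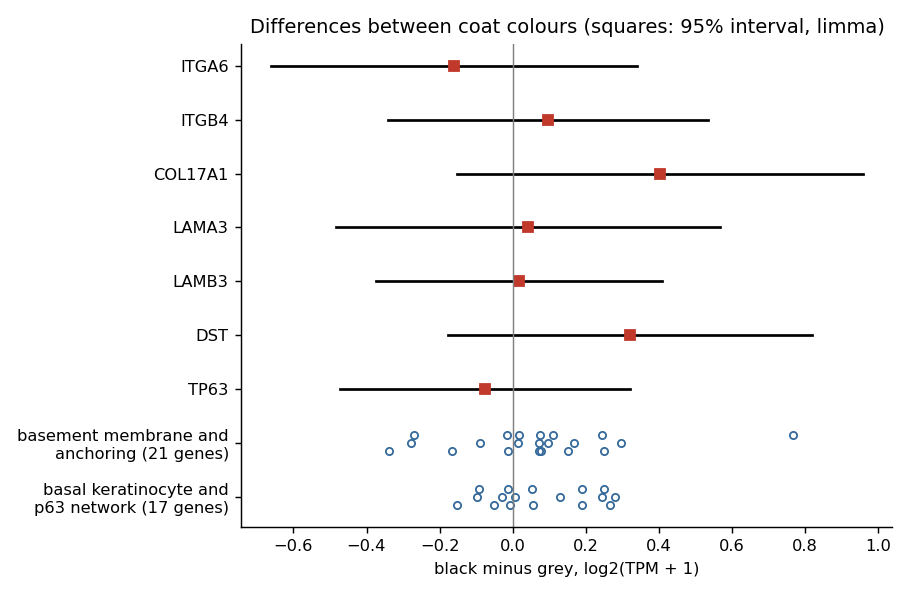
Difference between black and grey possums on the log2(TPM + 1) scale, with black minus grey on the horizontal axis. Red squares with bars give the 7 genes with their 95% intervals from limma, and open circles give the genes of both related lists; all 7 intervals include 0, from COL17A1 at 0.40 to ITGA6 at -0.16.

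Integrin α6, encoded by ITGA6 on chromosome 2 (226455178 to 226554120, plus strand), pairs with β4 to form the laminin receptor of the hemidesmosome. ITGA6 had 31.2, 46.2 and 39.2 TPM in black replicates 1 to 3, against 38.5, 39.4 and 52.5 TPM in grey replicates 1 to 3. The lowest value was in a black library and the highest in a grey one, and the other 4 lay between 38.5 and 46.2 TPM. Means were 38.9 ± 7.53 TPM in black and 43.4 ± 7.86 TPM in grey (SD, n = 3 each), a log2 difference of -0.16 with a 95% interval from -0.66 to 0.34. The difference was -0.015 without black replicate 1 and -0.020 without grey replicate 3. Integrin β4, encoded by ITGB4 on chromosome 4 (198893482 to 198937578, minus strand), carries the long cytoplasmic tail that binds plectin and the DST protein. ITGB4 had 78.7, 67.8 and 61.4 TPM in black, against 59.5, 78.1 and 57.6 TPM in grey. Each group had 1 library near 78 TPM and the rest under 68 TPM, and the log2 difference was 0.096 (interval -0.34 to 0.53).

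Because the receptor holds α6 and β4 chains in equal number, their ratio was also compared. The log2 ratio of ITGA6 to ITGB4 was -1.34, -0.55 and -0.65 in black and -0.63, -0.99 and -0.13 in grey. The β4 chain thus had the higher TPM in all 6 animals. As mean depth over all exons, ITGB4 stayed higher except in grey replicate 3, at 27.5 for ITGA6 and 26.2 for ITGB4 per aligned gigabase. In the TPM ratio the groups overlapped and differed by -0.26 (exact permutation test, 2-sided, p = 0.5). That difference was -0.017 without black replicate 1 and -0.038 without grey replicate 3. With 3 animals in each group this test allows 20 assignments and cannot give a p below 0.1, and 13 such comparisons were made, all with an adjusted p of 1.

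ITGA6 transcripts had a single start in all libraries. An exon of 130 nt near the 3′ end (226549337 to 226549466) was skipped by transcripts of 3 libraries. In human ITGA6 an exon close to the end of the gene decides between the α6A and α6B cytoplasmic tails, and whether the possum exon is its counterpart was not tested. Transcripts with the exon carried 100%, 90.7% and 100% of ITGA6 TPM in black and 91.3%, 100% and 97.8% in grey. Both groups thus had over 90% inclusion in every library (difference 0.57 percentage points, exact permutation test, 2-sided, p = 1).

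ITGB4 had 2 optional exons in its 3′ part, of 156 nt (198896767 to 198896922) and of 201 nt (198898313 to 198898513). Both lengths are multiples of 3, as required of inserts that keep the reading frame. The exon of 156 nt was in 4.20%, 28.2% and 23.5% of spanning TPM in black and in 19.7%, 21.4% and 11.3% in grey. The exon of 201 nt was in 4.64%, 15.4% and 23.5% in black and in 19.7%, 13.3% and 0% in grey. Most ITGB4 TPM lacked both exons in every animal, and the groups overlapped (exact permutation test, 2-sided, p = 0.9 and p = 0.6). A second start 6.15 kb inside the gene appeared in black replicate 3 (11.4 TPM) and grey replicate 2 (10.4 TPM) and in no other library. Its transcripts carried both optional exons. They held all of the TPM with the 201-nt exon in grey replicate 2, and 11.4 of 14.45 TPM with it in black replicate 3. The shares thus depend on how pieces were assembled, and these exons were not compared by depth.

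**Figure D3:**
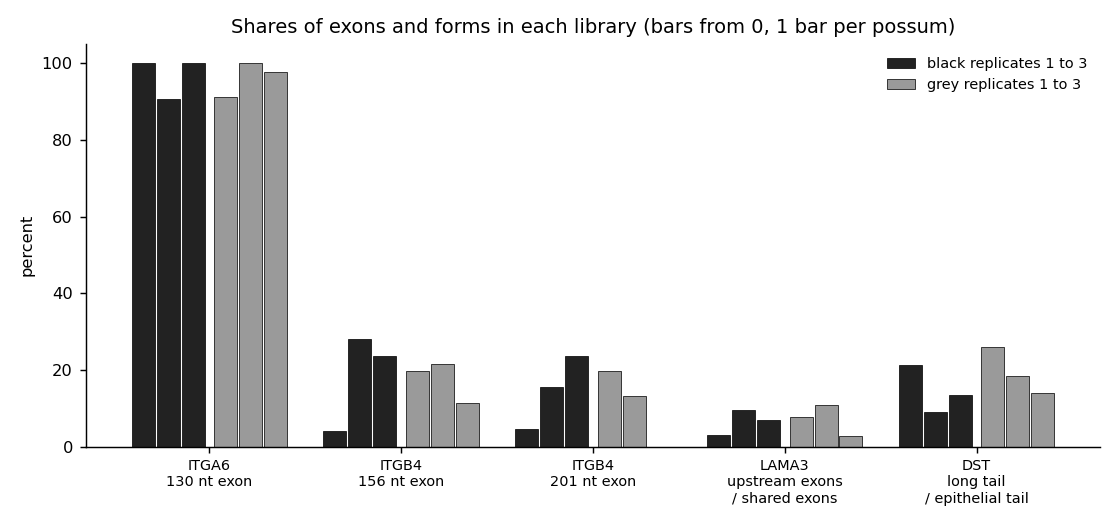
Percentage of transcript forms in each library, 1 bar per possum, with black replicates 1 to 3 left of grey replicates 1 to 3. The first 3 sets give TPM with an optional exon of ITGA6 or ITGB4; the other sets give depth of the upstream exons of LAMA3 over its shared exons, and of the long tail of DST over its epithelial tail. ITGA6 inclusion is over 90% in all animals, whereas neither ITGB4 exon passes 28.2%.

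Collagen XVII, encoded by COL17A1, spans the membrane of the basal cell and reaches into the basement membrane. COL17A1 lies on chromosome 8 (110399210 to 110453638, plus strand), and the assembled transcripts began 10.8 kb before the RefSeq start and had up to 58 exons. It had 374, 371 and 310 TPM in black, against 190, 310 and 315 TPM in grey. The lowest black library lay at the level of the middle grey one, and grey replicate 1 lay apart from the other 5. Means were 352 ± 36.2 TPM in black and 271 ± 70.5 TPM in grey (SD, n = 3 each), the largest difference among the 7 genes at 0.40 on the log2 scale (interval -0.15 to 0.96, limma, adjusted p = 1.00). Without grey replicate 1 the difference was 0.17. That library also had the fewest aligned bases, the marker sums given above, and the strongest lean of depth towards 3′ ends. The log2 ratio of depth in the 3′ part over the 5′ part of equal exonic length, averaged over 4 of the genes, was 0.54, 0.56 and 0.49 in black and 0.78, 0.59 and 0.53 in grey. The part of these values in the COL17A1 level was not tested. A minor second COL17A1 start was assembled in black replicate 1 and grey replicate 1, with 3.27% and 3.29% of the gene's TPM.

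DST encodes dystonin, a plakin with several forms: in mammals an epithelial form, BP230, ends in its own last exons and anchors keratin to the hemidesmosome, while longer forms of nerve and muscle continue into a rod of spectrin repeats. The gene occupies 611 kb of chromosome 7 (221988884 to 222600119, plus strand). Summed over all forms it had 93.1, 156 and 117 TPM in black, against 92.0, 100 and 94.3 TPM in grey. Black replicate 2 was above all other libraries, black replicate 3 was above all grey ones, and black replicate 1 lay within the grey range. Means were 122 ± 31.9 TPM in black and 95.5 ± 4.24 TPM in grey (SD, n = 3 each), a log2 difference of 0.32 (interval -0.18 to 0.82, limma, adjusted p = 1.00). The difference was 0.13 without black replicate 2. It was 0.50 without black replicate 1, the library with muscle markers (limma, adjusted p = 1.00). It was 0.17 as depth over a fixed exon length.

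Most DST TPM came from a start 398 kb inside the gene, at 222386754 to 222386887, which held 94.2%, 83.4% and 90.8% of DST TPM in black and 91.8%, 94.0% and 93.0% in grey. Black replicate 2 was lowest and the other 5 lay within a few points of one another (exact permutation test, 2-sided, p = 0.5). In that library, transcripts of 13.3 and 4.90 TPM were assembled as beginning past the main start, at 222425724, and were counted outside this share. The difference between groups was -3.49 points by TPM. By exon depth it was 1.80 points, but that measure sets only exons before the main start against the exons that follow it. Transcripts assembled as beginning at 222425724 do not enter the depth measure, so it is not the same share as that by TPM. The epithelial form read on into a pair of long terminal exons, of 2715 nt (222414081 to 222416795) and 4359 nt (222417542 to 222421900). Long transcripts from the main start, with up to 89 exons, left this last exon at 222420700 and continued with an exon starting at 222425724. They were assembled in every library but black replicate 2, where the long tail was in separate transcripts. In most of these libraries they used only a stretch of 129 nt of the last exon, but in grey replicate 2 they (19.6, 6.17 and 2.83 TPM) also carried the exon of 2715 nt.

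Since StringTie can split a long transcript into pieces, the forms were also compared by depth. The terminal exon pair without the 129-nt stretch, termed the epithelial tail, had a depth of 38.6, 77.8 and 55.2 per aligned gigabase in black and 36.8, 49.4 and 43.1 in grey. Exons of the long tail had a depth of 8.23, 7.12 and 7.38 in black and 9.58, 9.14 and 6.07 in grey. The epithelial tail was the deeper one in all 6 animals, and in black replicate 2 the epithelial tail was the highest of the 6 while the long tail was the second lowest. As a percentage of the epithelial tail, the long tail stood at 21.3%, 9.15% and 13.4% in black and 26.0%, 18.5% and 14.1% in grey, which overlapped (exact permutation test, 2-sided, p = 0.4).

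Depth was not even along the long tail, taken as 3 stretches of equal exonic length. The stretch nearest the 5′ end had a depth of 1.45 to 2.11 per gigabase in black and 1.36 to 2.93 in grey, and the stretch nearest the 3′ end 11.4 to 13.6 in black and 9.77 to 14.2 in grey, a ratio of 4.83 to 7.87 within a library. An exon of 5391 nt in the 5′ stretch (222428580 to 222433970) had 13.1%, 10.8% and 19.0% of the depth of the other long-tail exons in black and 18.4%, 15.3% and 11.8% in grey. Transcripts that skipped it carried 16.1 and 13.3 TPM in black replicates 1 and 2, and 21.7, 19.6 and 10.1 TPM in grey. Those with it carried 5.44, 5.87 and 11.7 TPM in black and 4.27, 8.99 and 2.87 TPM in grey. The skipping transcripts also left out exons of 150, 216, 147 and 234 nt that follow it. The part of skipping in the uneven depth was not tested. In black replicate 3 no transcript was assembled as skipping the 5391-nt exon. Black replicate 1, the library with muscle markers, had 13.1% at this exon and a long-tail depth of 8.23 per gigabase. That depth was the highest of the black group and lay below grey replicates 1 and 2 (9.58 and 9.14). The part of muscle in these values was not tested. Grey replicate 1 had the highest and grey replicate 3 the lowest long-tail depth, and Schwann cell markers (5 of 5 matched, none at 0) summed to 187 to 370 TPM in black and 143 to 544 TPM in grey, with the same libraries highest and lowest. The same libraries were also highest and lowest in the fibroblast markers, at 3609 and 962 TPM. The part of either marker list in the long-tail depth was not tested. Exons before the main start had a depth of 0.48, 1.11 and 0.066 per gigabase in black and 1.68, 0.99 and 0 in grey.

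**Figure D4:**
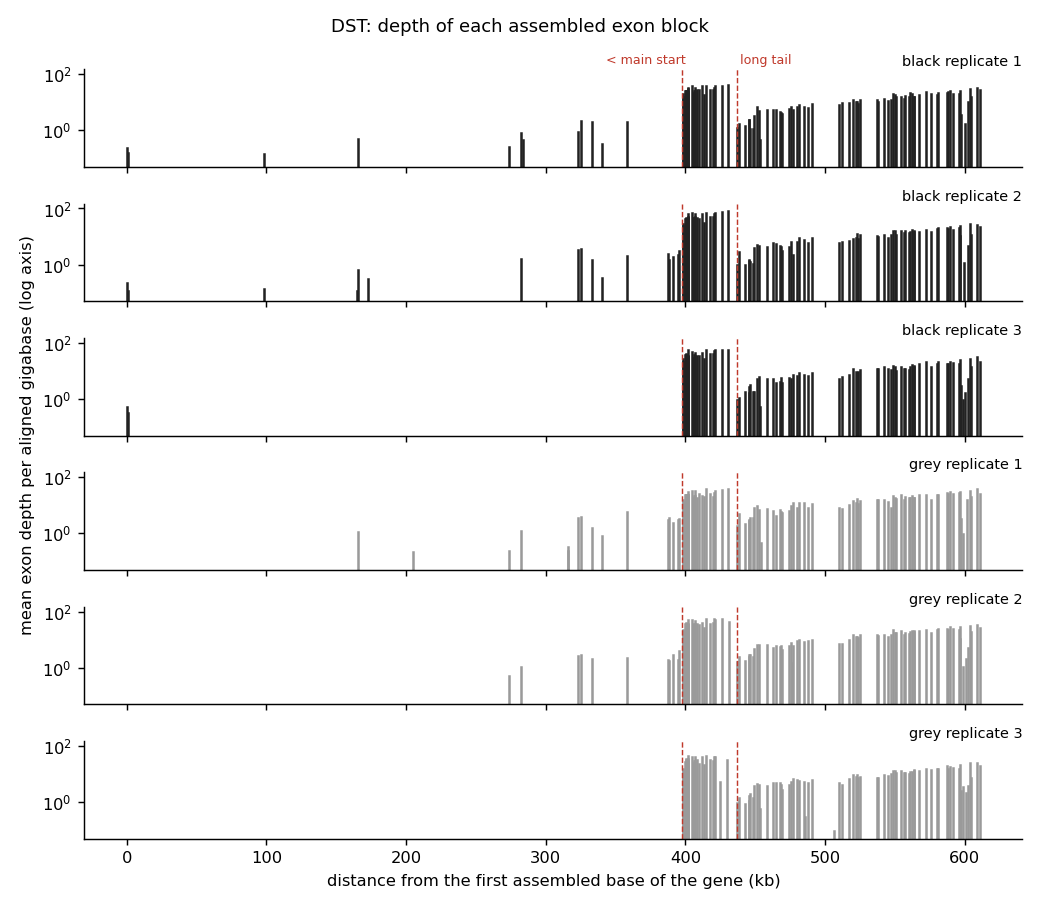
Mean depth per aligned gigabase of each assembled exon block of DST (vertical lines, log axis from 0.05) against distance from the first assembled base in kb, 1 panel per library with black above grey. Dashed lines mark the main start at 398 kb and the start of the long tail. Depth is highest between these lines in every library, drops at the start of the long tail and climbs again towards the 3′ end.

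Laminin-332, the ligand of α6β4, contains an α3 chain from LAMA3 and a β3 chain from LAMB3. LAMB3 lies on chromosome 4 (112084116 to 112143880, minus strand). It had 63.6, 63 and 56.3 TPM in black, against 58.8, 52.4 and 70.3 TPM in grey. All black values lay inside the grey range, with means of 60.9 ± 4.07 TPM in black and 60.5 ± 9.09 TPM in grey (SD, n = 3 each) and a log2 difference of 0.018 (interval -0.37 to 0.41). The main LAMB3 start held 76.7% to 96.2% of its TPM, and 4 minor starts were each assembled in 2 libraries. The farthest assembled base was 134 kb upstream of the RefSeq span.

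LAMA3 lies on chromosome 1 (243716149 to 244035059, plus strand) and is known in mammals for a short form, typical of epidermis, and a long form with additional N-terminal domains. The gene had 32.6, 21.5 and 29.3 TPM in black, against 24.4, 23.5 and 32.7 TPM in grey. Both groups covered nearly the same range, with a log2 difference of 0.041 (interval -0.48 to 0.57). The log2 ratio of LAMA3 to LAMB3 was -0.97, -1.55 and -0.94 in black and -1.27, -1.16 and -1.11 in grey, so the β3 chain had the higher TPM in every animal. The mean ratios differed by 0.024 (exact permutation test, 2-sided, p = 1).

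The main LAMA3 start lay 243 kb inside the gene (243958906 to 243958943) and opened the short form of up to 38 exons. It held 83.7%, 66.1% and 79.8% of LAMA3 TPM in black and 66.6%, 60.8% and 88.3% in grey. It was the leading start in all 6 animals, with a difference of 4.63 percentage points (exact permutation test, 2-sided, p = 0.8). The difference was -0.55 points when the same transcripts were weighted by aligned bases. Grey replicate 2 had the lowest share and grey replicate 3 the highest, so the spread within the grey group was wider than the difference between the groups.

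Exons upstream of the short-form start were assembled in all 6 animals, but in pieces. Transcripts opened at the upstream start (243716014 to 243716662) in every library, with 0.94 to 1.83 TPM, and 4 to 6 pieces per library began before the short-form start. A transcript of up to 51 exons joined upstream exons to the shared ones in black replicate 2 (3.83 TPM), black replicate 3 (1.20 TPM) and grey replicate 2 (4.12 TPM). Between 243881298 and 243894708, a gap of 13.4 kb, no assembled transcript crossed in any library, so no LAMA3 long form was assembled whole. TPM counts each short piece as a transcript, and the exons were therefore also compared by depth. Upstream exons had 3.04%, 9.66% and 6.82% of the depth of the shared exons in black and 7.75%, 11% and 2.85% in grey, and these ranges overlapped (exact permutation test, 2-sided, p = 0.8). The lowest upstream percentages were in black replicate 1 and grey replicate 3, the animals with the highest depth of shared LAMA3 exons (13.9 and 15.3 per gigabase). A high shared depth lowers this percentage by construction. Upstream depth itself was also lowest in these animals, at 0.42 and 0.44 per gigabase, against 0.66 to 1.03 in the others.

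**Figure D5:**
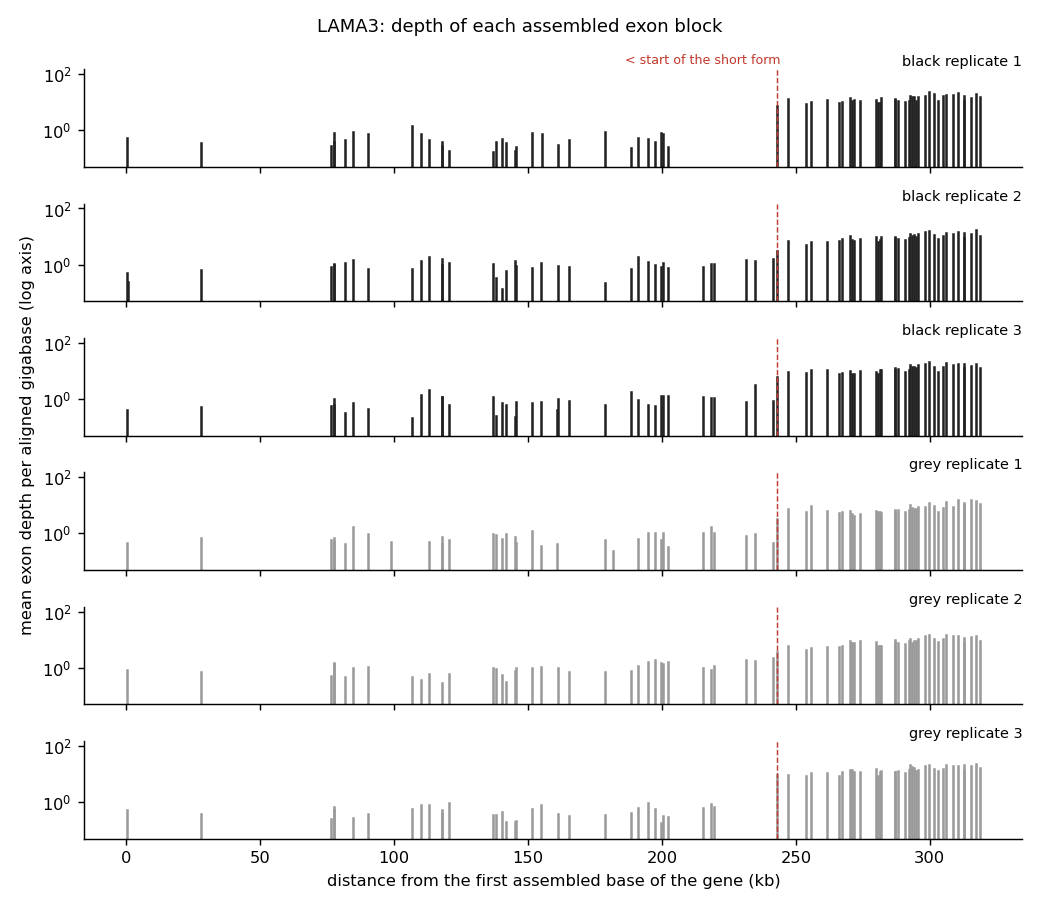
Mean depth per aligned gigabase of each assembled exon block of LAMA3 (vertical lines, log axis from 0.05) against distance from the first assembled base in kb, 1 panel per library with black above grey. The dashed line marks the start of the short form; exons before it have 2.85% to 11% of the depth of the shared exons after it.

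p63 exists as forms with (TA) or without (ΔN) an N-terminal transactivation domain, from separate starts, and the ΔN form is the one known from basal keratinocytes. TP63 lies on chromosome 4 (434602432 to 434846581, plus strand), and the assembled last exon ran 3.41 kb past the RefSeq end. It had 39.7, 41.1 and 43.9 TPM in black, against 36.6, 47.2 and 48.7 TPM in grey. The black values lay within the grey range, and TP63 and LAMB3 varied least of the 7 genes, with the highest library at 1.33 and 1.34 times the lowest, where COL17A1 reached 1.97 times. Means were 41.6 ± 2.16 TPM in black and 44.1 ± 6.60 TPM in grey (SD, n = 3 each), a log2 difference of -0.075 (interval -0.47 to 0.32).

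Like the ΔN start of other mammals, the main TP63 start was internal, 135 kb after the RefSeq start (434737425 to 434737522). It held 95%, 100% and 100% of TP63 TPM in black and 100%, 100% and 99.6% in grey. Transcripts from upstream starts were found in 2 libraries only, as pieces of 3 exons that did not reach the internal start. They had 2.00 TPM at a coverage of 7.61 in black replicate 1 and 0.19 TPM at a coverage of 1.00 in grey replicate 3. Black replicate 1 was also the library with skeletal muscle markers, at 2798 TPM, and their part in the upstream TP63 transcripts was not tested. The groups overlapped in the share of the internal start (exact permutation test, 2-sided, p = 1).

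At the other end of TP63, most TPM from the internal start was in transcripts of 11 or 12 exons that reached the last exon. Transcripts that ended early, by 434834619 to 434836091, took 0%, 2.86% and 6.11% of that TPM in black and 0%, 7.04% and 4.07% in grey (exact permutation test, 2-sided, p = 0.8). An exon of 94 nt (434844322 to 434844415) was left out by transcripts of black replicate 2 (1.70 TPM) and grey replicate 3 (1.91 TPM) alone. An exon of 116 nt (434815039 to 434815154) was left out in black replicate 1 (2.73 TPM) and grey replicate 2 (4.19 TPM). Both omissions occurred once in each coat colour, beside a full-length form of over 30 TPM. Every library but black replicate 1 also had a second form of 12 exons that reached the last exon. It carried 5.64 and 9.62 TPM in black replicates 2 and 3, and 6.62, 7.99 and 5.83 TPM in grey.

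Other genes that anchor the epidermis were compared in the same fit. Of 24 genes listed for the basement membrane and its anchorage, 21 were tested and none passed by limma, with 0 at an unadjusted p under 0.05. Differences were above 0 for 14 and below 0 for 7 (median 0.071), between -0.34 for FREM1 and 0.77 for FREM2, which encode proteins of the extracellular Fraser complex. FREM2 was a low gene, with 3.74, 3.89 and 2.92 TPM in black and 2.37, 3.41 and 0.24 TPM in grey, and these groups overlapped. FREM1 had 7.36, 8.42 and 6.52 TPM in black and 16.9, 6.35 and 8.09 TPM in grey, and its difference had a single high library, grey replicate 1. ITGB1, the β1 integrin chain of focal adhesions, averaged 121 ± 28.8 TPM in black and 112 ± 16.2 TPM in grey (SD, n = 3 each). CD151, a tetraspanin that associates with α6 integrins, averaged 91.3 ± 21.3 TPM in black and 91.3 ± 24.8 TPM in grey (SD, n = 3 each).

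PLEC, encoding plectin, the second plakin of the hemidesmosome, showed how pieces can move a sum of TPM. It was listed at 258, 69.5 and 68.2 TPM in black and at 66.4, 71.2 and 188 TPM in grey. In black replicate 1 and grey replicate 3 the 3′ end was a separate transcript of 932 nt (179 TPM) and of 950 nt (132 TPM). As depth over all PLEC exons, the values were 22.3, 18.6 and 18.7 per gigabase in black and 18.3, 17.3 and 16.8 in grey. Black replicate 1 stayed highest on that scale, and grey replicate 3 was lowest. The PLEC groups overlapped in TPM but not in depth, and the share of all genes without overlap in depth was not counted.

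Of 21 genes listed for basal keratinocytes and the p63 network, 17 were tested and none passed by limma, with 0 at an unadjusted p under 0.05. Their differences were above 0 for 10 and below 0 for 7 (median 0.052). SFN, an epithelial 14-3-3 protein, had the highest level, with 846 ± 166 TPM in black and 954 ± 276 TPM in grey (SD, n = 3 each). FGFR3, a fibroblast growth factor receptor of keratinocytes, averaged 125 ± 37.0 TPM in black and 126 ± 22.7 TPM in grey, and ZNF750, a p63 target in differentiation, 102 ± 4.86 TPM in black and 99.0 ± 13.5 TPM in grey. TP73, the p63 relative, had the largest difference of the list at 0.28. KLF5, a transcription factor of proliferating epithelium, was next at 0.27 and was the 1 gene of the 17 whose groups did not overlap (6.31% of all genes tested), with 73.4, 79.7 and 75.5 TPM in black and 71.2, 60.4 and 58.4 TPM in grey.

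The mean log2 level of the 7 genes was 6.12, 6.20 and 6.10 in black and 5.88, 6.08 and 6.19 in grey, so grey replicate 1 was lowest and the other 5 lay close together. Of 11851 other genes of at least 5 TPM, the 5 whose log2 levels kept the steadiest distance from that mean over the 6 libraries were IK (SD of the difference 0.017), LOC118843289 (0.033), NFKBIE (0.034), EIF3B (0.034) and RPL28 (0.038), against a median SD of 0.30. With 6 libraries and so many genes, this likeness is a description of these samples.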

How the data were processed

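Poly(A) RNA of ear punch skin was sequenced by the authors as strand-specific single-end reads of 120 nt. Per the paper and the submitters' processing notes, reads were trimmed with Trim Galore 0.6.10 (Phred score 20), mapped to the possum RefSeq assembly mTriVul1.pri with HISAT2 2.2.1, cleared of contaminating amplicon reads, and assembled separately for each library with StringTie 2.2.0 and a guide annotation. The deposited values are coverage, FPKM and TPM per transcript and coverage per exon, not read counts, and FPKM served only to derive aligned bases from coverage.

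Transcripts were assigned to RefSeq genes by span and strand; the gene table held no exons, so exons were inferred from assembled transcripts (231661 of 274079 assigned). TPM was summed per gene. Black minus grey was fitted with limma 3.58.1 (R 4.3.3) on log2(TPM + 1), using its trend option, over genes averaging 1 TPM or more, and p-values were adjusted by Benjamini-Hochberg (threshold 0.05); the paper states no test. Fold changes on this scale understate changes of low genes. The fit was tested on simulated data. Shares and ratios were compared by exact permutation. First exons within 1000 nt formed a start, kept as a promoter when found in 2 libraries. Depth measures and optional exons were added after the data were seen. The 7 genes and all lists were chosen with earlier results of these data known. From both related lists, the text names the 3 genes highest in mean TPM and the 2 with the largest difference. KRT5, KRT14, KRT15, PERP, COL4A5 and COL4A6 were not analysed here.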

Additional observations from a re-analysis of the deposited data

How the results depend on the processing

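No member of the 7 genes or of the related lists passed the threshold under any alternative run. In all, 98 summary values and 138 values of single genes or exons were labelled the same. Another 7 summary values moved and 7 reversed, as did 22 single values. The same meant a close count, a mean of the 7 genes within its SD, or else an equal sign. That mean difference, 0.092, was labelled the same at 0.0062 without grey replicate 1. Among the 7 genes, 1 unadjusted limma p was under 0.05 in any of these fits, that of DST without black replicate 1. Over all genes tested, 311 of 15420 were under 0.05 in that fit. In the related lists, 1 was under 0.05 with a fixed exon length, 1 without black replicate 3 and 2 without grey replicate 3. In the fits just named for the lists, the counts over all genes tested were 353 of 15521, 310 of 15488 and 551 of 15544. The number of genes called, 3, became 1 at a mean of at least 5 TPM, 7 with a fixed exon length and 0 with the replicate block, and 0 to 3 when leaving out 1 library. Same-numbered black and grey libraries deviated from their colour means with correlations of -0.031, 0.0072 and -0.056. With so few libraries these values cannot decide whether the numbers pair the animals, and the labels state no pairing. None of the 7 genes was called with the block or without it. LAMB3 had a log2 difference of -0.020 with median-of-ratios scaling, which shifted the median of all genes by less than 0.1. Leaving out 1 library gave -0.079 to 0.13 for LAMB3, -0.080 to 0.21 for LAMA3 and -0.082 to 0.22 for their ratio. The log2 difference kept its sign but ran from 0.0017 to 0.23 for ITGB4 and from -0.20 to -0.00026 for TP63. The share of the main start differed by -0.55 points for LAMA3 by aligned bases. Leaving out 1 library, it differed by -0.93 to 12.8 for LAMA3 and -2.39 to 0.13 for TP63. The depth measure for DST, which leaves out transcripts beginning past the main start's first exons, differed by 1.80 points. Of the measures added after the data were seen, the DST long tail as a percentage of the epithelial tail (-8.27 to -1.67 points) and the depth of the epithelial tail (3.77 to 23.4 per gigabase) kept their sign when 1 library was left out. The other 6 did not, with ranges of -2.86 to 1.21 points for LAMA3 upstream depth, -1.96 to 3.66 for the ITGA6 exon, -3.62 to 8.38 and -1.98 to 8.47 for the 156-nt and 201-nt ITGB4 exons, -3.21 to 0.85 for the 5391-nt DST exon, and -2.57 to 0.95 for early TP63 ends. The cause was not tested for any of these. Depth limits LAMA3 most, with 1819 reads in grey replicate 1, and a form in pieces cannot be quantified by TPM alone.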

Other observations

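Transcripts on the strand opposite to a member were assembled in grey replicate 2 only, each with 2 exons, at 0.90 TPM over ITGA6 and at 1.17 TPM over LAMB3.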
